A study of Homo sapiens with 8 samples.

Results

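DU145 cells given FGF19 with heparin were compared with untreated DU145 cells on Affymetrix Human Gene ST arrays. DU145 is an established human prostate cancer cell line of epithelial origin. The comparison used 4 of the 8 arrays of the series, the 2 labelled FGF and the 2 labelled untreated, and every one of the 33297 probesets on them. All cells were grown in serum and moved to medium without serum on the day before treatment. The FGF cells then received 50 ng/ml FGF19 and 100 µg/ml heparin for 100 min, and the untreated cells received neither. The remaining 4 arrays came from cells given 50 ng/ml TNFα for 90 min, either alone or after the same FGF19 and heparin, because the study asked how activation of the receptor FGFR4 bears on NFκB signalling. The study's methods give lower doses of heparin and TNFα than the labels do. Heparin was never given without FGF19, so the effects of these agents cannot be told apart. The labels call the arrays of a group biological replicates without saying how the cultures were kept separate, and the p-values measure the spread between these arrays.

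FGF19 is a hormone-like fibroblast growth factor that is best known for controlling bile acid synthesis in the liver. It binds the receptor tyrosine kinase FGFR4 together with the co-receptor β-Klotho, and heparin or the heparan sulfate chains of the cell surface stabilise FGF and receptor complexes. An activated FGF receptor recruits the adaptors GRB2, SOS1 and GAB1 and starts the RAS-ERK and PI3K cascades. ERK in turn induces immediate-early genes, which need no new protein synthesis, and feedback inhibitors such as the Sprouty, SPRED and DUSP proteins.

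The signal of an array is a linear brightness made with the PLIER method, and its median was 101 and 102 on the untreated arrays and 105 and 104 on the FGF arrays. Across all probesets the log2 signals of the untreated pair correlated at r = 0.980 and those of the FGF pair at 0.969, while untreated and FGF arrays correlated at 0.949 to 0.955. Of 8 measured epithelial markers, 6 lay above the array median on all arrays, and the epithelial keratins KRT7, KRT8 and KRT19 were among them. None of the 4 measured markers of luminal prostate cells, KLK3, KLK2, ACP3 and SLC45A3, lay above the median on all arrays. KLK3, which encodes prostate-specific antigen, had signals of 53.8 and 46.0 on the untreated arrays. Among markers of other cell types, 1 of 9 leukocyte markers (CD68), 0 of 8 fibroblast markers and 1 of 6 endothelial markers (CDH5) lay above the median on all arrays.

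Differences were tested with limma on log2 signal over all 8 arrays, and a probeset is called at a Benjamini-Hochberg adjusted p under 0.05, two-sided. Of the 33297 probesets, 6051 were higher with FGF19 and heparin (18.2%) and 4680 were lower (14.1%). At least 2-fold differences made up a small part of these, with 979 probesets higher (2.94%) and 931 lower (2.80%). The median size of a called difference was 0.65 on the log2 scale. The FGF and untreated arrays did not overlap at 22267 probesets (66.9%), far more than were called. All 6051 probesets called higher and 4680 called lower were among them, so lack of overlap at a called gene is no separate evidence. Without untreated replicate 1 the counts became 3306 higher and 2455 lower, and without untreated replicate 2 they became 3415 and 2340. FGF replicate 1 lay farther from the untreated arrays than FGF replicate 2 at 66.2% of the probesets called higher and at 80.5% of those called lower. The median log2 difference over all probesets was 0.08, while it was -0.02 over the brighter 16648 probesets and within 0.003 of 0 over all of them after quantile or cyclic loess normalization, which called 5319 and 5384 probesets higher and 4928 and 4949 lower. Of the 18417 genes with 1 symbol, each taken at its brightest probeset, 3665 were higher (19.9%) and 3129 were lower (17.0%), and these shares are the background for the gene groups below. Both shares were larger among the 10722 genes brighter than the median probeset, of which 2847 were higher and 2799 lower. Lists of bright genes are therefore to be read against that larger background.

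The same agents were also given to the cells that received TNFα, which offers a second comparison with no array in common. FGF replicate 1 nevertheless correlated more with replicate 1 of the arrays given both agents (r = 0.981) than with FGF replicate 2 (r = 0.969), and the labels do not say whether arrays of one number were handled together. With TNFα present, 6474 probesets were higher (19.4%) and 4299 lower (12.9%), or 4028 (21.9%) and 2838 (15.4%) of the 18417 genes. Of the probesets higher with FGF19 and heparin alone, 4648 were also called higher with TNFα, which is 76.8% of the first list and 71.8% of the second. Of those lower, 3612 were lower in both, which is 77.2% and 84.0% of the respective lists. Among differences of at least 2-fold, 84.1% of the 979 higher and 94.0% of the 931 lower probesets were called in the same direction with TNFα. Both comparisons share the spread estimated from all 8 arrays, so their calls are not independent of each other. The counts also moved with single arrays. Without replicate 2 of FGF19 with TNFα, 2608 were higher and 1872 lower, and 2255 were higher and 1694 lower in both comparisons. Without replicate 1 of that group 3763 were higher and 2821 lower, and without TNFα replicate 1 or 2 there were 3453 and 3267 higher and 2132 and 1948 lower. The counts shared by both comparisons were 2664 and 2741 higher and 1913 and 1806 lower without TNFα replicate 1 or 2, and 2819 and 2854 higher and 2174 and 2114 lower without untreated replicate 1 or 2. Only 12 probesets called higher and 2 called lower were called the opposite way. Across the brighter 16648 probesets the log2 differences of the 2 comparisons correlated at r = 0.941, and across all probesets at 0.644, where the points of each comparison share its 4 arrays. Limma called 0 probesets for an interaction of FGF19 and TNFα (smallest adjusted p = 0.293), 1715 had an unadjusted p under 0.05, and a trended and robust prior called 4.

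**Figure D1:**
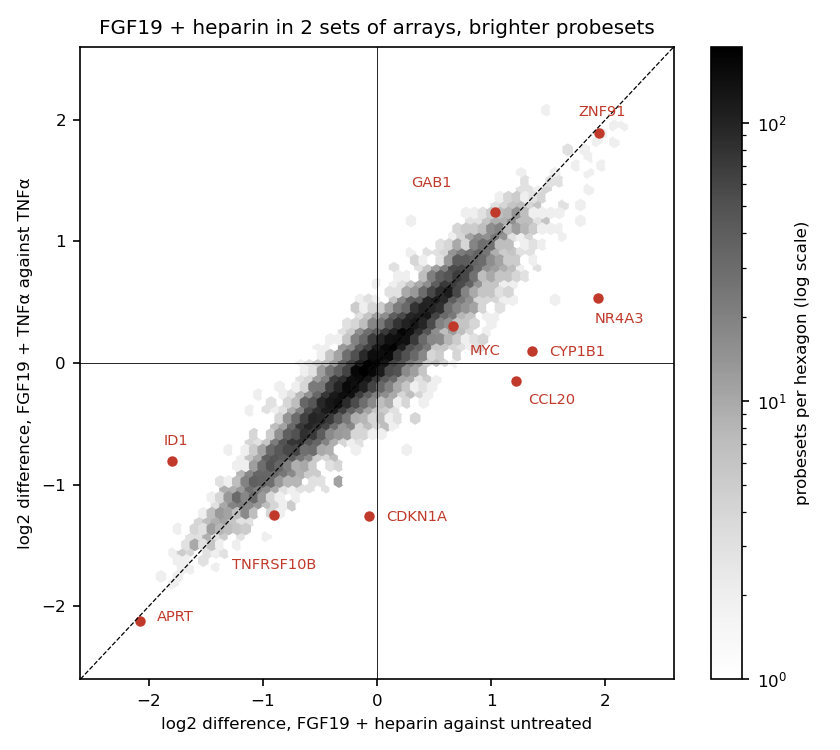
Each hexagon counts probesets brighter than the median by their log2 difference between FGF19 with heparin and untreated (horizontal axis) and between FGF19 with TNFα and TNFα alone (vertical axis), with the dashed line marking equal differences. Most probesets lie along the line (r = 0.941), whereas NR4A3, CCL20, CYP1B1 and MYC lie below it on the right, and CDKN1A is near 0 on the horizontal axis and at -1.26 on the vertical one.

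Genes of the FGF receptors themselves were too few to set their share of calls apart from that of all genes. Of 7 receptor, co-receptor and ligand genes 1 was higher (14.3%, against 19.9% of all genes) and 0 lower (against 17.0%). The gene called was FGFR2, with signals of 40.6 and 50.0 untreated and 65.1 and 57.6 with FGF19 (log2 difference 0.44, SE 0.13, limma adjusted p = 0.0415). All of these signals were below the array median, and the call was lost under 13 of 16 alternative settings. FGFR4, the main receptor of FGF19, read 168 and 151 untreated and 129.5 and 126 with FGF19. The FGF arrays were lower and did not overlap the untreated ones, with a log2 difference of -0.32 that did not pass (adjusted p = 0.0523). KLB, which encodes β-Klotho, read 113 and 101 and then 118 and 145 (log2 difference 0.29, adjusted p = 0.193). FGFR1 read 270.3 and 279.7 untreated and 239 and 278 treated, and its groups overlapped (adjusted p = 0.528). FGFR3 and KL were not called, and neither was FGF19 itself, whose own transcript had signals of 45.5 and 42.7 and 52.3 and 43.8.

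Downstream of the receptor, genes of the RAS-ERK and PI3K cascades moved in both directions. Of 23 measured, 8 were higher and 9 lower, both above the background shares, and the median log2 difference was -0.07. That median was 0.10 without FGF replicate 1, and the counts were 5 higher and 4 lower without untreated replicate 1 and 5 and 6 without untreated replicate 2. SOS1, the exchange factor that loads RAS with GTP, rose from 338 and 314 to 949 and 744 (log2 difference 1.37, SE 0.14, limma adjusted p = 0.00281). Its relative SOS2 rose from 984 and 985 to 1740.0 and 1509. Every FGF array was above every untreated array for both genes. GAB1, a docking protein for PI3K and SHP2, rose from 206 and 228 to 472 and 416 at probeset 8097586 (log2 difference 1.03, adjusted p = 0.00287), whereas its dimmer probeset 8102982 had a log2 difference of -0.33 (adjusted p = 0.0757). PDPK1, CBL, RPS6KA3, PIK3CB and PTPN11 were the other higher genes, by 0.37 to 0.86 on the log2 scale. The kinase gene MAP2K1, which encodes MEK1, read 1435 and 1295 untreated and 626 and 798 with FGF19, a log2 difference of -0.95. AKT1, MAP2K2, RPS6KA1, MAPK3, GRB2, HRAS, AKT2 and SHC1 also fell, with AKT1 at -1.10 and SHC1 at -0.34. Genes of adaptors and of kinases were found in both directions.

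Immediate-early genes changed in both directions. Of 33 measured, 8 were higher and 11 lower, against backgrounds of 19.9% and 17.0%. Their median log2 difference of 0.06 turned to -0.04 after quantile normalization, and without untreated replicate 1 or 2 the counts became 5 higher and 2 lower, and 5 and 6. Without FGF replicate 1, 6 were lower. The strongest rises were those of NR4A3 and NR4A2, which encode orphan nuclear receptors that are induced by many stimuli. The upstream sequences of NR4A3, DUSP1 and EGR1 are given to show the elements through which such genes are known to be induced, in one gene that rose, one that fell and one that was not called. They are the 250 bases before the RefSeq start in GRCh38.p14, read 5′ to 3′ on the strand of the gene. NR4A3 is at chr9:99821635-99821884 on the plus strand, DUSP1 at chr5:172771196-172771445 on the minus strand and EGR1 at chr5:138465229-138465478 on the plus strand. Capitals mark, on either strand, TGACG in NR4A3 (the core of the cyclic AMP response element), TGACGTCA in DUSP1 (the full element, which contains TGACG) and the CArG box in EGR1 (the site of serum response factor). A different motif is marked in each gene. TGACG on either strand is also present, without capitals, in the EGR1 stretch and elsewhere in the DUSP1 stretch.
NR4A3: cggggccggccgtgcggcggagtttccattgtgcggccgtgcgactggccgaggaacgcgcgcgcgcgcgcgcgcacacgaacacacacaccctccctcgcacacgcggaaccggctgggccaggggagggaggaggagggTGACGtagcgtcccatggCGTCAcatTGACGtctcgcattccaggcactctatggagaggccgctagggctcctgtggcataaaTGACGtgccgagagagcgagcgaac
DUSP1: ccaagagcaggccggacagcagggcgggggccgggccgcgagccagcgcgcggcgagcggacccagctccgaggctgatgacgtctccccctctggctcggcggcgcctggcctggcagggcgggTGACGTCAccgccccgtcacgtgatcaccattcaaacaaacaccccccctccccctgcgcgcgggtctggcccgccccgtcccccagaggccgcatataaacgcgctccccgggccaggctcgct
EGR1: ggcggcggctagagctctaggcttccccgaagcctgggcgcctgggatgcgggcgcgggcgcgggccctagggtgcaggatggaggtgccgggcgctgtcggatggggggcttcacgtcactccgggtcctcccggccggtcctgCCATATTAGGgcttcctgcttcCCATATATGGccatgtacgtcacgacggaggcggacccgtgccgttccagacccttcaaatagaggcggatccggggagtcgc
TGACG occurred 4 times in this stretch of NR4A3, starting 109, 91, 83 and 25 bases before the start, and in 21.2% of 35116 RefSeq promoters of the same length. The full element TGACGTCA was present in 1.65% of promoters and the CArG box, found 105 and 83 bases before the start of EGR1, in 1.16%. Of the 40 immediate-early, feedback and ETS genes with a promoter, 20 held TGACG, and these were 5 of the 10 higher and 5 of the 9 lower genes. A gene was counted if any of its promoters held the motif, so this count and the share of all promoters are unlike measures. Whether the motif bears on the direction of change was not tested.

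NR4A3 had signals of 63.5 and 69.4 on the untreated arrays and 254 and 255 on the FGF arrays (log2 difference 1.94, SE 0.09, limma adjusted p = 0.00275). NR4A2 had 71.3 and 76.0 and 219.7 and 206 (log2 difference 1.53, SE 0.14, adjusted p = 0.00275). The replicates of both genes lay close together and the groups were far apart. The remaining member of the family, NR4A1, read 82.8 and 70.02 untreated and 87.9 and 95.0 with FGF19 and was not called (log2 difference 0.26, adjusted p = 0.137). TNFα alone gave 260 and 269 for NR4A3, 230 and 178 for NR4A2 and 363 and 336 for NR4A1, all above the untreated signals. From these levels, FGF19 and heparin with TNFα raised NR4A3 and NR4A2 by 0.54 and 0.51 and lowered NR4A1 by 0.75 on the log2 scale. The interactions did not pass in limma (adjusted p = 0.293, 0.738 and 0.738). MYC, the growth regulator, rose from 738 and 720.4 to 1135 and 1178 (log2 difference 0.66, adjusted p = 0.00359). FOSL1, which encodes the AP-1 subunit FRA1 and is a known late target of ERK, was higher by 0.81, and the EGF family ligand gene EREG by 0.46. ZFP36L1, ZFP36L2 and KLF2 completed the genes that rose.

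FOS and EGR1 are classic serum-response genes. FOS had signals of 93.0 and 93.9 untreated and 60.5 and 72.3 with FGF19 (log2 difference -0.50, limma adjusted p = 0.0322), and EGR1 had 287 and 300.0 and 251 and 216 (log2 difference -0.33, adjusted p = 0.0572). Both FGF arrays were below both untreated arrays for each gene, but only FOS was called, and its call was lost under some settings. IER2 fell from 568 and 513 to 229.5 and 290.2 and IER5 from 292 and 263 to 118 and 146, log2 differences of -1.06 and -1.08. JUNB, FOSL2, CCN1, CCN2, HBEGF, LIF, IER3 and MCL1 were the other genes called lower, by -0.41 to -0.77 on the log2 scale. JUN, FOSB, ATF3 and EGR3 were not called, with log2 differences of -0.09 for JUN and 0.11 for FOSB.

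Feedback inhibitors and ETS factors of the ERK pathway also changed in both directions. Of 21 measured, 7 were higher (33.3%, against 19.9% of all genes) and 2 lower (9.52%, against 17.0%), with a median log2 difference of 0.15. Leaving out any 1 of the 8 arrays lowered the count of higher genes to between 2 and 4, and it was 2 without untreated replicate 1 or 2, while the lower count was 1 without FGF replicate 2 or untreated replicate 2. SPRED2, an inhibitor of RAS signalling, rose from 307 and 357 to 579.9 and 586 (log2 difference 0.82, SE 0.11, limma adjusted p = 0.00401). ETV5, an ETS transcription factor that FGF signalling is known to induce, rose from 295 and 332 to 440.2 and 482 (log2 difference 0.56, adjusted p = 0.0111), and its relative ETV1 by 0.59. ETV4 was not called, at 175 and 190.0 and then 146 and 176. Among the Sprouty genes, SPRY4 rose from 62.6 and 49.6 to 74.8 and 89.8 while SPRY1 fell from 106 and 121 to 85.5 and 82.3, and SPRY2 was not called (log2 difference 0.15). The calls of ETV5, SPRY4 and SPRY1 were each lost under some of the 16 settings. The ERK phosphatase gene DUSP6, a widely used readout of FGF signalling, read 259 and 259 untreated and 288 and 310.1 treated. Its FGF arrays were the higher ones, but the log2 difference of 0.21 did not pass (adjusted p = 0.115). DUSP1, which encodes a nuclear MAP kinase phosphatase, was by contrast lower, at 1242 and 1276 untreated and 523 and 633 treated (log2 difference -1.13, SE 0.11, adjusted p = 0.00277). With TNFα present DUSP1 differed by -1.13 and SPRED2 by 0.60.

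**Figure D2:**
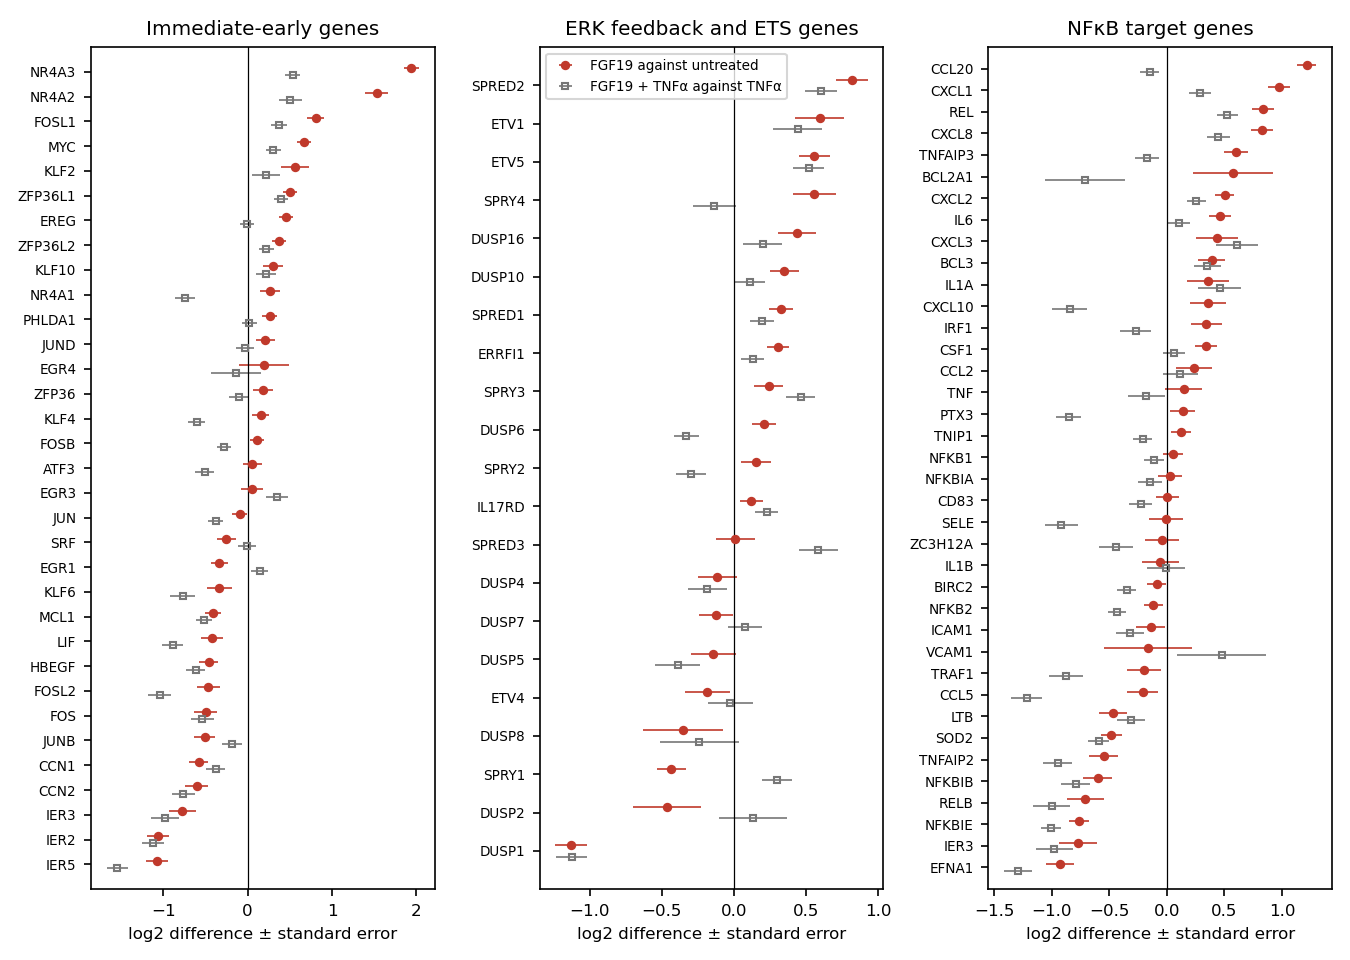
Log2 difference with its standard error for each measured immediate-early gene, ERK feedback or ETS gene and NFκB target gene, for FGF19 with heparin against untreated (filled circles) and for FGF19 with TNFα against TNFα alone (open squares), 2 arrays per group. NR4A3 and NR4A2 stand above the other immediate-early genes at 1.94 and 1.53, DUSP1 lies near -1.13 in both comparisons, and CCL20 is at 1.22 against untreated and at -0.15 with TNFα.

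Known target genes of NFκB were called in shares near those of all genes in the absence of TNFα, with several chemokine genes among the higher ones. Of 38 measured, 9 were higher (23.7%, against 19.9% of all genes) and 8 lower (21.1%, against 17.0%), with a median log2 difference of 0.04. These counts were 5 and 2 when untreated replicate 1 was left out, 8 and 4 when untreated replicate 2 was, and 5 genes were lower without FGF replicate 1. The upstream sequences of CCL20 and CXCL1, the genes of this list with the largest rises, are shown with their κB motif, the binding site of NFκB, in capitals (250 bases before the RefSeq start, GRCh38.p14, plus strand, CCL20 at chr2:227813592-227813841 and CXCL1 at chr4:73869143-73869392).
CCL20: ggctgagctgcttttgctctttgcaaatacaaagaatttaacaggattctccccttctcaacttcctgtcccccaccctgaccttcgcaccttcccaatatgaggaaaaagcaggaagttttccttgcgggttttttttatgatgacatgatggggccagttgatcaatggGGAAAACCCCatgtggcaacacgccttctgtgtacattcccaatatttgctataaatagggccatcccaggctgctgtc
CXCL1: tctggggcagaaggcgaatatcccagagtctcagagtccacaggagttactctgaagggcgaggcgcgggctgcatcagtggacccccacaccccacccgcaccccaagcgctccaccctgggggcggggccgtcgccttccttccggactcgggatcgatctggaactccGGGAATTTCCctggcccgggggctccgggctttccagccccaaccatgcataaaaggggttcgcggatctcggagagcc
The motif started 79 bases before the start in both genes, and 9.96% of the 35116 promoters held it on either strand. CCL20 had signals of 104 and 112 untreated and 249 and 253 with FGF19 (log2 difference 1.22, SE 0.08, limma adjusted p = 0.00275). CXCL1 had 101 and 115 and 212 and 212 (log2 difference 0.98, SE 0.10, adjusted p = 0.00277). CXCL8, which encodes the neutrophil chemoattractant interleukin 8, was brighter and went from 444 and 484 to 858 and 784 (log2 difference 0.82). In all of these genes the FGF replicates were close to each other and above both untreated arrays. CXCL2, IL6, TNFAIP3, BCL3 and CSF1 were also higher, by 0.34 to 0.60, and the NFκB subunit gene REL by 0.83. The lower genes included inhibitors and partners of NFκB, namely NFKBIE, which fell from 269 and 252 to 154 and 152, NFKBIB and RELB, besides EFNA1, IER3, TNFAIP2, SOD2 and LTB. NFKBIA, the best known feedback inhibitor, was not called (log2 difference 0.03). On the TNFα arrays FGF19 did not raise CCL20 (2932 and 3030.5 with TNFα alone and 2743 and 2642 with both, log2 difference -0.15), and in that comparison 3 genes of the list were higher and 14 lower. The interaction at CCL20 had an unadjusted p of 1.97e-05 and an adjusted p of 0.293.

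Genes that restrain the cell cycle were divided. Of 17 growth brakes, 4 were higher (23.5%, against 19.9% of all genes) and 5 lower (29.4%, against 17.0%), or 2 and 2 without untreated replicate 1 and 3 and 3 without untreated replicate 2. BTG1, an antiproliferative gene, fell from 989 and 1014 to 583 and 663 (log2 difference -0.69, SE 0.09, limma adjusted p = 0.00391), and CDKN1B, which encodes p27, fell from 692 and 717 to 419.9 and 459. RB1, the retinoblastoma gene, rose from 661 and 659 to 1639.6 and 1224 (log2 difference 1.10, adjusted p = 0.00364), and its relatives RBL1 and RBL2 rose by 0.70 and 0.27. CDKN2B was also higher, and CDKN2A, CDKN2D and GADD45B were also lower. CDKN1A, which encodes p21, was not called in the absence of TNFα, at 196 and 181 untreated and 185 and 174 with FGF19 (adjusted p = 0.601). With TNFα present it was 703 and 661 without FGF19 and 278 and 291 with it (log2 difference -1.26, adjusted p = 0.00348). The difference between these effects had an unadjusted p of 7.35e-05 and an adjusted p of 0.349.

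Death receptor and apoptosis genes were mostly lower where they changed. Of 32 measured, 6 were higher (18.8%, against 19.9% of all genes) and 16 lower (50.0%, against 17.0%), with a median log2 difference of -0.35. Leaving out untreated replicate 1 or 2 gave 7 and 8 lower genes and 4 and 3 higher ones. FADD, the adaptor that links death receptors to caspases, fell from 1867 and 1866 to 468 and 665 (log2 difference -1.74, SE 0.17, limma adjusted p = 0.00277). The mitochondrial carrier gene MTCH1 fell from 875 and 842 to 276 and 347 (log2 difference -1.47), and the BH3-only gene BAD from 211 and 237 to 91.8 and 90.7 (log2 difference -1.29). For each of these the lowest untreated signal was over 2-fold above the highest FGF signal. TNFRSF10B, which encodes the TRAIL receptor DR5, fell from 1273 and 1191 to 608 and 713 (log2 difference -0.90), and HTRA2, CASP9, BAK1, BAX, DIABLO and TRADD were lower as well. The higher genes were BCL2L11, which encodes the death promoter BIM, at a log2 difference of 1.04, FAS at 0.80, BMF at 0.62, APAF1 at 0.46, XIAP at 0.38 and CASP8 at 0.35. Both the falling and the rising genes therefore included promoters of cell death, and MCL1, a survival gene, was among those that fell.

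Kinases, cyclins and scaffolds that act on RNA polymerase II were higher in 10 of 21 genes (47.6%, against 19.9% of all genes). They were lower in 5 (23.8%, against 17.0%), and the median log2 difference was 0.26. AFF1, a scaffold of the super elongation complex, rose from 259 and 285 to 746 and 601 (log2 difference 1.30, SE 0.13, limma adjusted p = 0.00279). CCNK, the cyclin partner of CDK12 and CDK13, rose from 377 and 394 to 949.9 and 755 (log2 difference 1.14, adjusted p = 0.00287). CDK12, CDK13, CDK19, AFF4, CCNT1, CCNT2, CCNH and CCNL1 were also higher, and CDK9, the kinase of positive elongation factor P-TEFb, was lower by a log2 difference of -1.14. The counts were 7 and 6 higher and 1 and 1 lower when untreated replicate 1 or 2 was left out, and 2 were lower without FGF replicate 1. IRF2, which encodes an interferon regulatory factor, rose from 173 and 179 to 391.8 and 357 (log2 difference 1.09, adjusted p = 0.00281).

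Heparin resembles the heparan sulfate chains of cell surface proteoglycans, so the genes that make these were examined too. Of 36 measured, 2 were higher and 7 lower (19.4% against the background of 17.0%). SDC1, the core protein syndecan 1, fell from 684 and 721 to 284 and 323 (log2 difference -1.21, SE 0.10, limma adjusted p = 0.00275), and the glypican gene GPC1 fell from 262 and 249.8 to 142 and 158. B3GAT3 and XYLT2, whose enzymes build the linker to which the chains are attached, fell from 292 and 312 to 76.0 and 118 and from 180.3 and 174 to 70.8 and 92.8. The share of lower genes was near the background and the median log2 difference of the list was -0.02. Without either untreated array 4 were lower and 1 higher.

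The largest changes of brighter probesets with 1 gene symbol were of quite different genes. Probesets with several symbols or none were left out of this ranking. The study's own processing lists larger changes than those named here, such as a fall of SNORD3A. Among the 12 largest rises, 5 were zinc finger genes (ZNF91, ZNF429, ZNF721, ZNF724 and ZNF737) and 2 were the NR4A genes described above. WNK1, a kinase that controls ion transport, rose from 135 and 132 to 583 and 477 at probeset 7952986 (log2 difference 1.98, SE 0.15, limma adjusted p = 0.00275), and by 0.95 at its brighter probeset 7952953. The study's own list names probeset 7952986 HSN2, so the larger rise may not stand for WNK1 as a whole. EXPH5, a RAB27 effector gene, rose from 110.3 and 125 to 394 and 295. The small nucleolar RNA SNORA50A rose from 219 and 256 to 839 and 741, and LOC100132686 and LOC441666 completed the 12. LOC441666, with 98.4 and 145 untreated and 509 and 260.5 treated, had an SE of 0.40 and lost its call under some settings. Its other probesets had log2 differences of 0.67 to 1.99.

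The 12 largest falls, ranked in the same way, held 2 noncoding RNAs and 10 protein-coding genes. RMRP, the RNA of the RNase MRP complex that cuts ribosomal RNA precursors, fell from 1622 and 1509 to 298 and 446 (log2 difference -2.10, SE 0.18, limma adjusted p = 0.00275). The small nucleolar RNA SNORA68 fell from 637 and 889 to 103 and 233, with a large SE of 0.37. ID1, which encodes an inhibitor of basic helix-loop-helix factors, fell from 652 and 572 to 155 and 199.5 (log2 difference -1.79). In every one of these the treated arrays were below the untreated ones, which the choice of the genes required. PFKL, a phosphofructokinase of glycolysis, fell from 578 and 578 to 137 and 204, and the tetraspanin gene CD151 from 1019 and 939 to 217 and 319.8. NOC2L, which encodes an inhibitor of histone acetylation, TMEM147, and SLC35B2, which carries the sulfate donor PAPS into the Golgi, were lower by -1.78 to -1.86 on the log2 scale. APRT, GPAA1, WDR18 and DDIT4 are described with their groups.

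**Figure D3:**
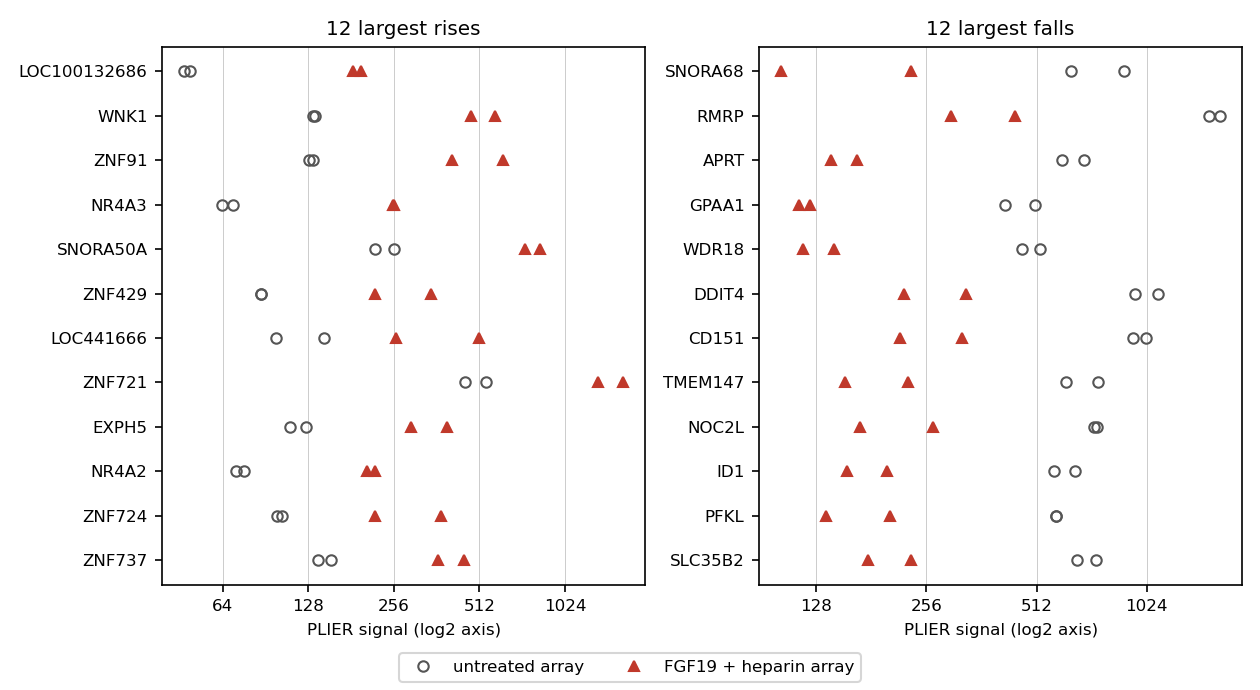
PLIER signal on a log2 axis of the 12 genes with the largest rises (left) and the 12 with the largest falls (right). They were ranked among called probesets with 1 gene symbol that were brighter than the median. Open circles are the 2 untreated arrays and filled triangles the 2 FGF19 with heparin arrays. Both treated arrays lie outside the range of the untreated ones in every gene because the genes were chosen that way. The replicates of NR4A3 nearly coincide whereas those of SNORA68 and LOC441666 are wide apart.

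Many genes of protein synthesis were lower. Among 57 genes for proteins of the cytosolic ribosome, 30 fell and 0 rose in limma (37 and 1 at an unadjusted p under 0.05, median log2 difference -0.32). Among 74 for the mitochondrial ribosome, 42 fell and 4 rose (median -0.47). RPS28 fell from 4118 and 3757 to 1505 and 1824 and RPL3 from 3382 and 3543 to 1565 and 1808, log2 differences of -1.25 and -1.04 (limma adjusted p = 0.00275 for RPS28). MRPL53 fell from 1172 and 1240.3 to 469.9 and 590.0 and MRPL58 from 706 and 693 to 287 and 346. These genes are bright on all arrays, and both treated arrays were below both untreated ones. Ribosomal protein genes have many processed pseudogenes, and how much of their signal comes from such copies is uncertain. Of 35 aminoacyl-tRNA synthetase genes, whose enzymes charge tRNAs, 18 were lower and 1 higher (median -0.42). FARSA fell from 758 and 776 to 215 and 306 and VARS1 from 755 and 691 to 231 and 328. Of 54 ribosome biogenesis genes 25 were lower (46.3%, against 17.0% of all genes) and 10 higher (18.5%, near the 19.9% of all genes). WDR18, a part of the complex that matures the large subunit, fell from 523 and 468 to 118 and 143 (log2 difference -1.93, adjusted p = 0.00275), and FBL, the methyltransferase fibrillarin, from 1344 and 1488 to 696 and 796. POLR1D, MPHOSPH10, RIOK1 and UTP20 were among the 10 that rose, by 0.55 to 0.66. Without untreated replicate 1 or 2 the lower counts of the 2 ribosomal protein groups were 19 and 16, and 27 and 27, and those of the synthetases 9 and 10. The 4 higher mitochondrial ribosome genes were then 1 and 2, and 2 without FGF replicate 1 or any of the TNFα-treated arrays. For ribosome biogenesis they were 17 and 15, with 4 and 5 higher, and 5 were higher without FGF replicate 1.

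Genes of the respiratory chain and the proteasome were lower to a similar extent. Of 34 complex I genes 19 were lower and 1 higher (median log2 difference -0.47), and of 35 genes of complexes II to V 21 were lower and 3 higher (median -0.54). The complex I subunit gene NDUFA8 fell from 754 and 777 to 219 and 304 (log2 difference -1.57, SE 0.16, limma adjusted p = 0.00277). CYC1, which encodes cytochrome c1 of complex III, fell from 1118 and 1055 to 300.2 and 384 (log2 difference -1.68). UQCRC1 and COX8A differed by -1.58 and -1.28, and ATP5PF, ATP5F1D and UQCRB were the exceptions that rose. Of 43 proteasome genes 27 were lower and 2 higher (median -0.46). PSMB5, the catalytic subunit that proteasome inhibitors target, fell from 506 and 567 to 153 and 210.2 (log2 difference -1.58), and PSMA5 fell from 1209.6 and 1469.6 to 503 and 557. PSME4 and PSMD5 were the higher members, at 0.80 and 0.45. These 3 groups had 55.9% to 62.8% of their genes lower, against 17.0% of all genes. Without untreated replicate 1 or 2, 14 and 15 complex I genes, 16 and 13 genes of complexes II to V and 16 and 18 proteasome genes were lower, and 1 proteasome gene was higher without either.

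Metabolic and stress genes were lower in part. Of 24 genes of cholesterol and fatty acid synthesis 11 were lower (45.8%, against 17.0% of all genes) and 2 higher (8.33%, against 19.9%). Their median log2 difference was -0.26. LSS, the lanosterol synthase, fell from 1428 and 1252 to 343 and 478 (log2 difference -1.72, SE 0.17, limma adjusted p = 0.00277), and the mevalonate pathway genes MVD, MVK and PMVK by log2 differences of -1.64, -1.31 and -0.99. Of 20 purine salvage and interconversion genes 6 were lower and 3 higher. APRT, which recovers adenine, fell from 692 and 599 to 141 and 165 (log2 difference -2.08, adjusted p = 0.00275), and IMPDH2, the rate-limiting enzyme of guanine nucleotide synthesis, from 1125 and 1111 to 444 and 630.5. The APRT signals of the treated arrays were far below those of the untreated ones. The lower counts became 7 and 8 for cholesterol and fatty acid synthesis and 3 and 3 for purines when untreated replicate 1 or 2 was left out, and the higher counts became 1 and 0 for the first group and 0 and 0 for purines. Of the 5 GPI transamidase genes, whose complex attaches proteins to their membrane anchor, 3 were lower. GPAA1 fell from 508 and 419.9 to 115 and 124 and PIGS from 1029 and 936 to 379 and 496, whereas PIGK, the catalytic subunit, was not called at 495 and 511 and 616 and 581. PIGT was lower by a log2 difference of -0.34 at its bright probeset, and lost the call under some settings.

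Of 30 genes of the integrated stress response 12 were lower (40.0%, against 17.0% of all genes) and 7 higher (23.3%, near the 19.9% of all genes). DDIT4, an inhibitor of mTORC1, fell from 1099 and 949.6 to 222 and 329 (log2 difference -1.92, SE 0.19, limma adjusted p = 0.00277). ATF4, the central transcription factor of this response, fell from 2453 and 2353 to 1405 and 1562 (log2 difference -0.70), and its targets SHMT2 and CHAC1 fell from 1782 and 1809 to 613 and 838 and from 307 and 278 to 162 and 182. The kinases that start the response, EIF2AK1, EIF2AK2, EIF2AK3 and EIF2AK4, rose by small log2 differences of 0.29 to 0.50. Without untreated replicate 1 or 2 8 were lower, and the count of 7 higher genes became 1 and 2. It was 3 without either TNFα array and 4 without FGF replicate 1 or either array given both agents. Of 24 heat shock and chaperonin genes 6 were lower and 1 higher. The lower share was above the 17.0% of all genes but near that of the brighter genes, of which 2799 of 10722 were lower. The higher share was below the 19.9% of all genes. The co-chaperone gene DNAJB1 fell from 1412 and 1355 to 774 and 891. The chaperonin subunit genes CCT7 and CCT5 fell by log2 differences of -0.50 and -0.42. The count of 6 was 1 to 3 when any array other than FGF replicate 2 was left out, and 1 and 2 without untreated replicate 1 or 2.

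Of the 8 epithelial markers 4 were lower and 0 higher, with KRT8 at 2589.6 and 2467 untreated and 1088 and 1372 treated, KRT19 at 1555 and 1478 and 532 and 737, and KRT7 and CLDN7 by log2 differences of -0.90 and -0.69 (limma adjusted p = 0.00329 and 0.00607). Both treated arrays were below both untreated ones for each. The summed signal of the epithelial list was 12050 to 12360 on the untreated arrays and 7858 to 8730 on the FGF arrays. That of the 9 leukocyte markers was 616 to 633 and 604 to 620.3, with LYZ and CD3E higher and CD68 lower. That of the 8 fibroblast markers was 376.0 to 378 and 378 to 435, that of the 6 endothelial markers 562 to 565 and 623 on both arrays, and that of the 4 luminal markers 235 to 242 and 275 to 284, with ACP3 as the only marker of these lists that was called (higher by 0.43). PTPRC, the general leukocyte marker, read 16.8 and 13.7 and 22.5 and 22.8. The part of these markers in the results was not tested.

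**Figure D4:**
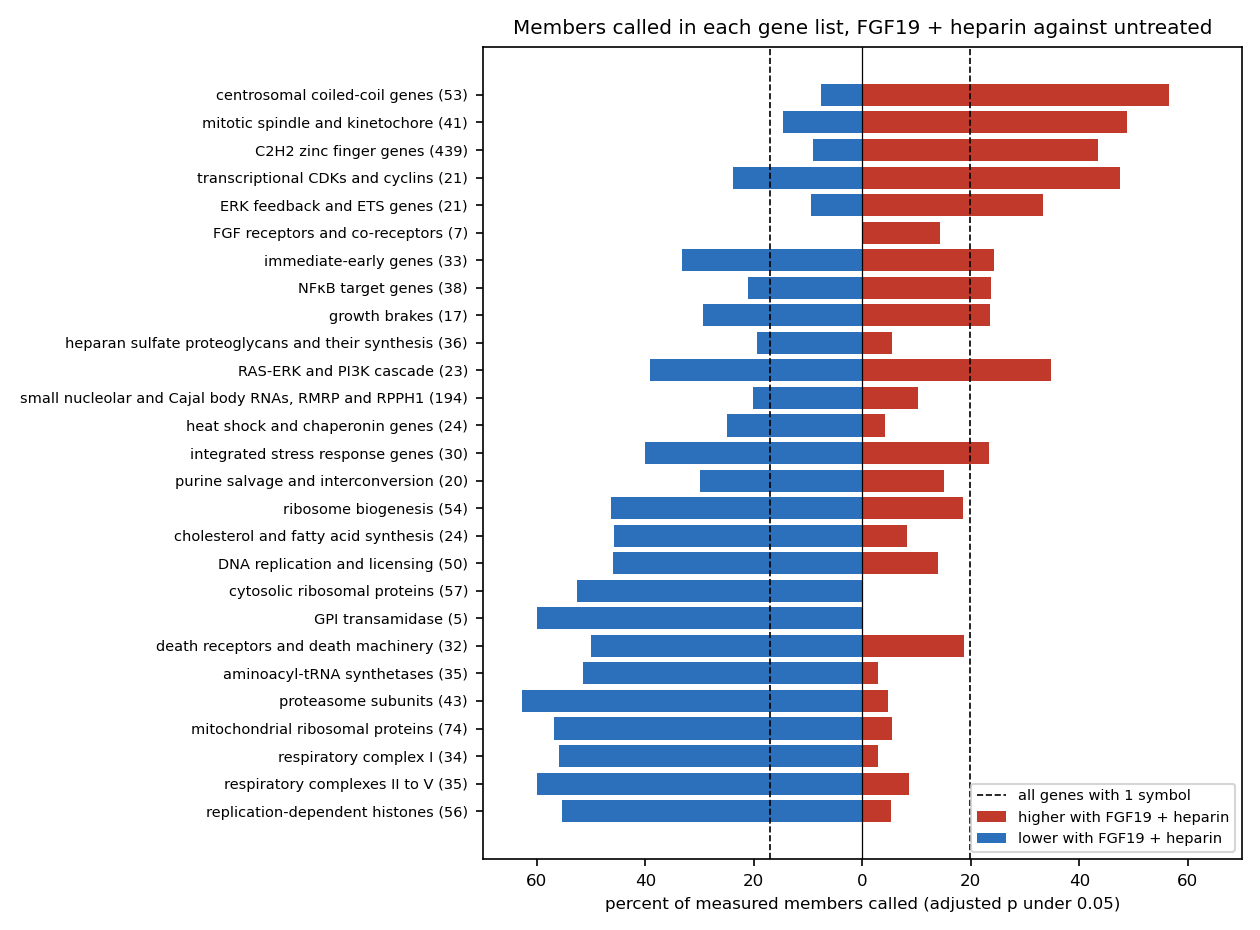
Percent of the measured members of each gene list that were called higher (right) or lower (left) with FGF19 and heparin against untreated, with the number of measured members in parentheses and the lists ordered by their median log2 difference. Dashed lines mark the shares of all genes, 19.9% higher and 17.0% lower. The bars of the centrosomal, mitotic and zinc finger lists reach far past the right line and those of the histone, respiratory, ribosomal and proteasome lists far past the left one.

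Genes of DNA replication and histones were mostly lower where they changed and those of mitosis mostly higher. Of 56 replication-dependent histone genes, whose transcripts lack a poly(A) tail and are made in S phase, 31 were lower and 3 higher (median log2 difference -0.59). H3C2 fell from 940.0 and 919 to 293 and 341 (log2 difference -1.56, SE 0.13, limma adjusted p = 0.00275) and H2AC21 from 1769.8 and 2053 to 554 and 775. H2BC14 was an exception, at 171 and 159.7 untreated and 461 and 440.4 treated. Histone genes are near-identical copies of each other, so the signal of single members is uncertain. Of 50 DNA replication and licensing genes 23 were lower (46.0%, against 17.0% of all genes) and 7 higher (14.0%, against 19.9%). The helicase gene MCM2 fell from 609 and 638 to 251 and 308 and the polymerase gene POLD1 from 179 and 194 to 74.4 and 78.5, while RFC1, ORC3 and POLA1 rose by 0.88, 0.66 and 0.56. Of 41 mitotic spindle and kinetochore genes, in contrast, 20 were higher and 6 lower (median 0.30). SGO2, which protects centromeric cohesion, rose from 345 and 403 to 920.4 and 768 (log2 difference 1.17, adjusted p = 0.00287), the kinesin gene KIF20B from 432 and 429 to 1046 and 885, and CENPE was higher by 1.21. CDK1, CCNB2, MAD2L1, BUB1B, PRC1 and SPC24 were the 6 that fell. Without untreated replicate 1 or 2 the lower counts were 20 and 14 for histones and 14 and 12 for replication, where 14 were lower without FGF replicate 1, and the mitotic genes had 12 and 14 higher. In the other direction they were 1 and 1 higher for histones, 3 and 4 higher for replication and 3 and 4 lower for the mitotic genes, and replication had 4 higher without FGF replicate 1 or either array given both agents. These are bulk measurements, in which fewer cells of a cycle phase and less RNA per cell cannot be told apart.

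Centrosomal coiled-coil genes had the highest share of rises of the lists, with 30 of 53 higher (56.6%, against 19.9% of all genes) and 4 lower (median log2 difference 0.51). CEP162, which acts at the base of cilia, rose from 76.7 and 91.0 to 219.5 and 203 (log2 difference 1.34, SE 0.11, limma adjusted p = 0.00275). CEP135 rose from 252 and 255 to 587 and 521 and LRRCC1 from 344 and 379.7 to 795 and 715. AKAP9, a large scaffold of centrosome and Golgi, rose from 214 and 199 to 478 and 415. In each of these both treated arrays were well above both untreated ones. CNTROB, HAUS1, HAUS2 and NINL were the 4 lower genes. With TNFα present 33 of the 53 were higher and 1 lower, and 30 were higher in both comparisons. The count of higher genes was 22 and 25 when untreated replicate 1 or 2 was left out, and that of lower genes was 1 or 2 without any 1 of the 8 arrays.

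C2H2 zinc finger genes form a large family of transcription factors, many of which repress transposable elements. Of 439 measured, 191 were higher (43.5%, against 19.9% of all genes) and 40 lower (9.11%), with a median log2 difference of 0.29, and 173 were higher in both comparisons. The counts became 102 and 120 higher and 14 and 9 lower without untreated replicate 1 or 2, and 26 were lower without FGF replicate 1. Of 221 such genes on chromosome 19, 107 were higher (48.4%) and 15 lower, and of 218 on other chromosomes 84 were higher (38.5%) and 25 lower. In the order of RefSeq genes the highest median was that of the run from ZNF737 to ZNF681, 1.06 over 23 measured genes, of which 16 were higher and 0 lower. ZNF91, a repressor of SVA elements that lies in this run, rose from 129 and 132 to 618 and 409 (log2 difference 1.94, SE 0.20, limma adjusted p = 0.00281). ZNF429 of the same run rose from 87.2 and 87.4 to 345 and 220.2, and its treated replicates were farther apart. In the neighbouring run from ZNF101 to ZNF486, 6 of 8 were higher and 0 lower (median 0.85). ZNF350, in the run from ZNF577 to ZNF836, rose from 71.3 and 77.2 to 201 and 189.5 (log2 difference 1.40), and ZNF566 from 239 and 255 to 555 and 517. The run from ZNF772 to ZNF416 differed, with 0 higher and 3 lower of 6. Members of these runs are close copies of each other, and how far their probesets share signal is uncertain.

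**Figure D5:**
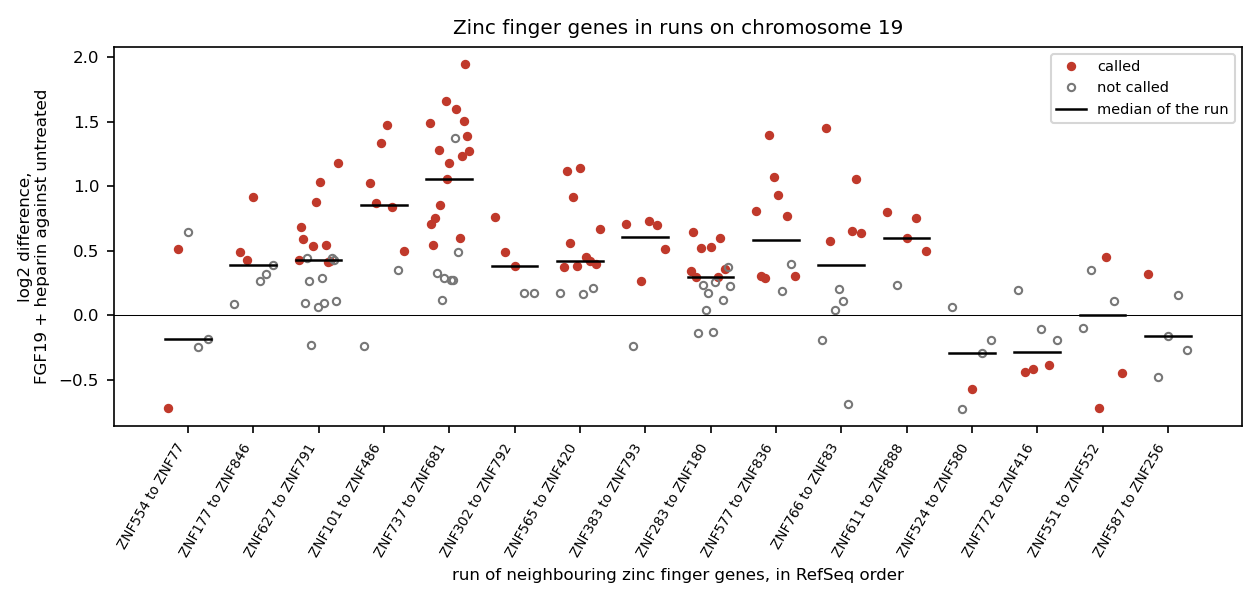
Log2 difference between FGF19 with heparin and untreated of each measured zinc finger gene that lies in a run of neighbouring zinc finger genes on chromosome 19, with runs in RefSeq order, filled points for called genes, open points for genes not called and a bar for the median of the run. The run from ZNF737 to ZNF681 has the highest median, 1.06, and the run from ZNF772 to ZNF416 is among the few with a median below 0.

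Small nucleolar and Cajal body RNAs guide the modification of ribosomal and spliceosomal RNA. Of 194 measured with RMRP and RPPH1, 20 were higher (10.3%, against 19.9% of all genes) and 39 lower (20.1%, near the 17.0% of all genes), or 9 and 26 without untreated replicate 1, 12 and 19 without untreated replicate 2 and 25 lower without FGF replicate 1. By class, 11 of 115 box C/D RNAs were higher and 16 lower, 8 of 61 box H/ACA RNAs were higher and 15 lower, and 1 of 16 Cajal body RNAs was higher and 6 lower. The share of higher RNAs was below the 19.9% of all genes in each class. For lower RNAs the share was below the 17.0% of all genes in box C/D and above it in the box H/ACA and Cajal body classes. Of these RNAs, 56 of the 115, 22 of the 61 and 5 of the 16 were dimmer than the median. The RNAs of the RNase MRP and RNase P complexes both fell. RPPH1, the RNA of RNase P, fell from 517 and 529.9 to 159 and 196 (log2 difference -1.57, SE 0.12, limma adjusted p = 0.00275), beside the fall of RMRP. SNORD53 rose from 309.8 and 319.7 to 640.0 and 633.

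Promoter composition differed slightly between genes that rose and fell. The median GC content of RefSeq promoters was 63.0% for 2944 of the 3665 genes called higher and 65.8% for 2546 of the 3129 called lower. Genes not called had 61.7%. Among genes brighter than the median probeset the medians lay closer, at 64.5% for higher, 65.9% for lower and 65% for uncalled genes. Across 8673 genes brighter than the median probeset, GC content and log2 difference were nearly unrelated (Spearman rho = -0.06, genes that share the same arrays). The genes with the lowest GC content stood out, since 45.8% of the 236 genes below 45% were higher and 12.3% lower (median log2 difference 0.33). Between 65% and 70% these shares were 24.9% and 31.8% (median -0.08). GC content of the transcripts and probes was not tested.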

How the data were processed

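The authors deposited 1 table of linear PLIER signal intensity for 33297 probesets on 8 arrays, 2 in each of 4 groups, made per the labels with Affymetrix Expression Console. Neither its version nor any normalization is given in the sources used here. The 240 values of 0 were raised to 0.01, which was the smallest positive signal on every array, and intensity was taken to log2 with no further scaling and no filter. Group means over all 8 arrays were modelled by lmFit and eBayes of limma 3.58.1 (R 4.3.3), and p-values were adjusted by Benjamini-Hochberg over all probesets. The residual variance had 4 degrees of freedom, and with so few arrays precision is limited by their number. Of the probesets, 19460 had 1 gene symbol in the platform's annotation, 1754 several and 12083 none, and 19429 of the symbols were matched to RefSeq on GRCh38.p14. In gene lists each gene was taken at its brightest probeset.

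The members and lists were chosen with earlier results of these data known, and no set test was run. Genes named included the 12 largest rises and 12 largest falls of called probesets with 1 gene symbol. These were brighter than the median and did not overlap between the groups. Also named were up to 4 members of each of 32 lists with the smallest p, and genes of the FGF pathway and the study's text. Further members named were chosen after their values were seen. The steps were tested on simulated data. Settings tried instead were normalization by quantiles or by cyclic loess, adding 16 to every signal, leaving out the dimmest 20 percent, no moderation, a trended and robust prior, only the 4 arrays compared, a replicate block and leaving out each array. Figures were drawn with matplotlib 3.10.9.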

Additional observations from a re-analysis of the deposited data

How the results depend on the processing

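Of the 133 named probesets that were called, 118 kept call and direction under all 16 alternative settings, 15 lost the call under 1 or more and 0 changed direction. These 133 were named by rule. Genes and further list members named only after their values were seen were not among them. With 16 added before log2, 632 probesets were higher by at least 2-fold. With only the FGF and untreated arrays in the fit, 3001 were lower. A trended and robust prior called 4 interactions. When 1 of the 8 arrays was left out, 3306 to 5366 probesets were higher and 2340 to 4638 lower with FGF19 and heparin, and 736 to 1216 and 680 to 1345 by at least 2-fold. With TNFα present 2608 to 6920 were higher and 1872 to 4743 lower. Higher in both comparisons were 2255 to 4336 and lower in both 1694 to 3858, and 0 to 11 interactions were called. For FGF19 alone the lowest counts without a fold limit came without an untreated array and those of at least 2-fold without FGF replicate 1, and those with TNFα without FGF19 and TNFα replicate 2. The cause was not tested. The replicate numbers did not pair the untreated and FGF arrays (correlation of deviations r = 0.009). Same-numbered FGF arrays and arrays given both agents deviated together at r = 0.195 (0.327 over the brighter probesets), TNFα arrays and those given both at 0.063 (0.202) and FGF and TNFα arrays at 0.046 (0.159). With the replicate block 6045 were higher and 4632 lower and 132 of the 133 named calls were kept. Medians of the FGF receptor, growth brake, leukocyte, fibroblast, endothelial and immediate-early lists, all near 0, changed sign under quantile or cyclic loess normalization. No background signal was used here, so no limit of detection is given.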

Other observations

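The following genes were chosen after their values had been seen, and their calls were not followed under the alternative settings. AHR, which encodes the aryl hydrocarbon receptor, a sensor of planar aromatic compounds, rose from 557 and 540.1 to 1299 and 1130.1 (log2 difference 1.14, SE 0.10, limma adjusted p = 0.00275). Its target CYP1B1, a cytochrome P450 gene, rose from 969 and 871 to 2453 and 2266 (log2 difference 1.36, adjusted p = 0.00275), and TIPARP, a repressor of the receptor, from 1724 and 1599 to 2903 and 2888. The replicates of these genes were close together and the groups did not overlap. CYP1A1 was dim and rose from 68.8 and 56.5 to 90.9 and 113, and NQO1 was not called (log2 difference -0.16). TNFα alone gave 715 and 671 for AHR, 1858 and 1807 for CYP1B1, 2721 and 2755 for TIPARP and 93.9 and 88.9 for CYP1A1, all above the untreated signals. With TNFα present, FGF19 and heparin again raised AHR, by 0.95, whereas CYP1B1, TIPARP and CYP1A1 were not called (log2 differences 0.10, -0.10 and -0.35). The interaction at CYP1B1 had an unadjusted p of 7e-05 and an adjusted p of 0.349, so the difference between the comparisons did not pass.

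KLRC3 and KLRC2, which encode natural killer cell receptors and were dim here, rose from 15.01 and 18.1 to 57.5 and 54.6 and from 25.4 and 27.7 to 64.8 and 59.3. TNFα alone gave 92.5 and 104 for KLRC3 and 122 and 131 for KLRC2, and FGF19 and heparin then differed from it by 0.22 and -0.12. CSRP2, which encodes a LIM domain protein, fell from 77.2 and 80.5 to 28.4 and 30.9 (log2 difference -1.41) and differed by -0.23 with TNFα. Among the 12 probesets called higher without TNFα and lower with it were the Notch ligand gene JAG1 (log2 differences 0.30 and -0.30), the Notch target HES1 (0.51 and -0.45) and the AMP deaminase gene AMPD3 (0.38 and -0.31). TNFα alone gave JAG1 232 and 244, HES1 141 and 138 and AMPD3 338 and 323, against 93.0 and 94.6, 62.8 and 81.0, and 116 and 117 untreated. The interactions of these genes did not pass after adjustment in limma (adjusted p = 0.761, 0.738 and 0.738).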
